A study of Homo sapiens with 6 samples.

Results

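Fatty acid oxidation shortens fatty acids by removing acetyl units from an acyl chain that is bound to coenzyme A. In mitochondria, long chains enter through the carnitine shuttle and then pass through repeated rounds of dehydrogenation, hydration, a second dehydrogenation and thiolytic cleavage, and the electrons of the first step reach the respiratory chain through the electron transfer flavoprotein. Peroxisomes run a parallel cycle, begun by acyl-CoA oxidases, for very long, branched and bile acid side chains. The 35 genes described here are the carnitine transferases, acyl-CoA dehydrogenases and oxidases, hydratases, thiolases, auxiliary isomerases and reductases and electron carriers of both routes. They were chosen by symbol from the 58051 genes of the deposited table, and each symbol matched 1 row.

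The data were RNA sequencing values from the established human breast cancer line MDA-MB-231, labelled wild type. Cells had been stained with a fluorescein-tagged recombinant human FABP4, a fatty acid carrier protein, and sorted by flow cytometry into FABP4 binding and FABP4 non-binding cells, with 3 libraries each and no unstained or unsorted group used here. The 2 groups therefore shared the line, the stain and the sort and differed in the gate. RNA had been depleted of ribosomal RNA and primed at random. The unit was TPM, in which reads per gene length are scaled to a library total of 1000000, so the depth behind a value is unknown and levels of different genes can be compared. Nothing in the labels states whether each library had its own culture or sort, and the p-values therefore reflect the spread among these 6 libraries, which may be technical.

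Between 15300 and 15945 genes per library reached 1 TPM, and the 15574 genes that did so in 3 or more libraries entered a limma test on log2(TPM + 1). Higher genes were 19.6% and lower genes 7.12% of those tested, at a Benjamini-Hochberg adjusted p under 0.05. Over all tested genes the median log2 change was 0.36, so each change below can be read against that value. Transcripts of the mitochondrial genome took 2.98 to 3.38% of TPM in non-binding and 9.99 to 11.2% in binding libraries. The mesenchymal-like markers of the line were present, with summed levels of 1190 to 1220 TPM in non-binding and 1560 to 1800 TPM in binding libraries. Of these 6 markers, CD44, AXL and CAV1 were higher by limma, and VIM, ZEB1 and SPARC did not pass. Of 12 epidermal keratinocyte markers, 8 were lower and none higher (limma, 0 higher at an unadjusted p under 0.05), with summed levels of 3440 to 4970 TPM in non-binding and 1440 to 2870 TPM in binding libraries. The part of these epidermal transcripts in the results below was not tested. In sorted bulk RNA, fewer cells of a type, less RNA per cell and an uneven share of RNA from outside the line cannot be told apart. Adipocyte and hepatocyte markers, from cell types rich in fatty acid handling, summed to at most 3.24 and 1.05 TPM in any library, with ADIPOQ, LEP and TTR at 0 throughout.

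Of the 35 members, 32 passed the filter and were tested. In the binding cells 18 of the 32 (56.2%) were higher, against 19.6% of all tested genes, and none was lower, against 7.12% (limma, 0 lower members also at an unadjusted p under 0.05). The tested members had a median log2 change of 0.73, which is 0.38 over the all-gene median, and 25 of the 32 lay above the all-gene median. For 24 members the lowest binding value exceeded the highest non-binding value, where 38.6% of all tested genes did so. The reverse held for 1 member and for 13.6% of all tested genes, and 7 members overlapped. Giving all libraries the same median took the all-gene change to 0.04 and left 8 members higher and 1 lower, where 6.18% of all tested genes were higher and 12.1% lower. Quantile normalization left 9 higher and 1 lower, where 7.69% of all tested genes were higher and 1246 of the 15574 lower. These are called the 2 rescalings below. The median relative to all genes was 0.38 and 0.39 under those scalings.

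**Figure D1:**
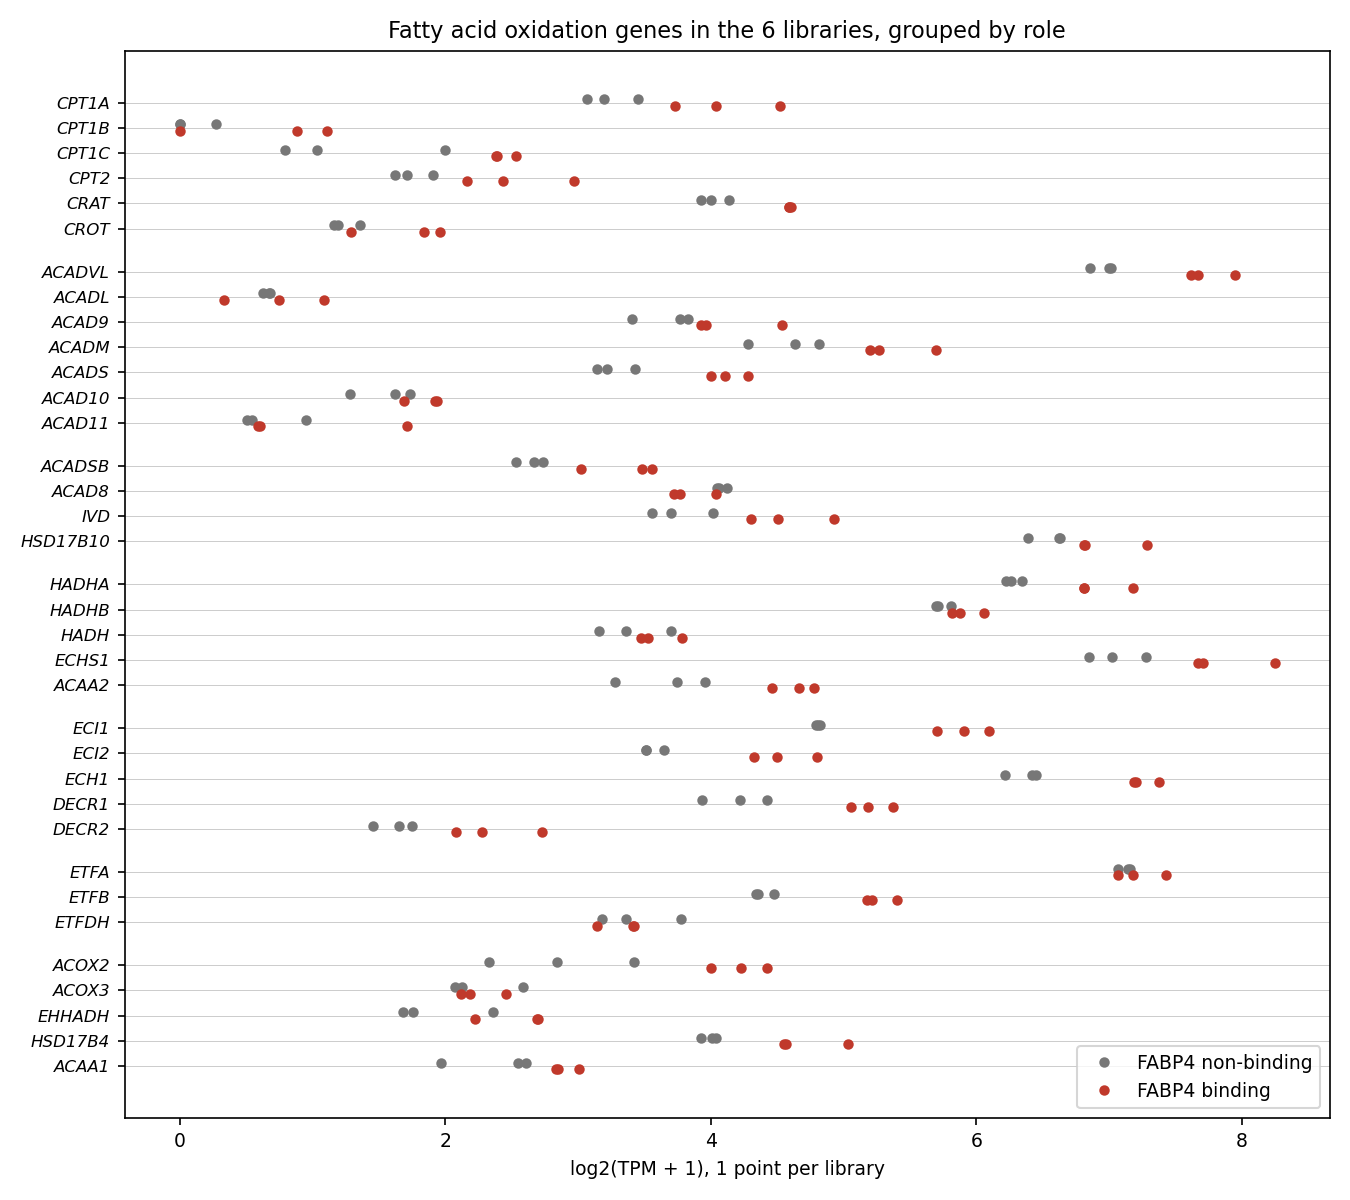
Level of each of the 35 members in every library as log2(TPM + 1) on the horizontal axis, with 1 point per library, non-binding in grey and binding in red, and genes grouped by role. The red points lie to the right of the grey points for most members, while those of ACAD8 lie to the left. The groups overlap for CROT, ACAD10, HADH, ETFA, ETFDH, ACOX3 and EHHADH, and for the untested CPT1B, ACADL and ACAD11.

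Single libraries bore on these counts. Binding replicate 1 was the highest of the 3 binding libraries for 26 of the 32 tested members, against 56.5% of all tested genes, and non-binding replicate 2 was the lowest non-binding library for 17, against 43.4%. Without binding replicate 1, 13 members were higher, with a median of 0.57, which is 0.32 over the all-gene median, and 12.7% of all tested genes were higher in that fit. No member passed without non-binding replicate 3, where 64 genes passed in all, and without non-binding replicate 2 only ECI1 and ECH1 did, among 360 genes. In the fit without non-binding replicate 3, the members' median was 0.73, and 19 of the 32 were higher at an unadjusted p under 0.05, where 27.0% of all tested genes were. In the same fit 17 members were higher at an adjusted p under 0.1, where 19.5% of all tested genes were.

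**Figure D2:**
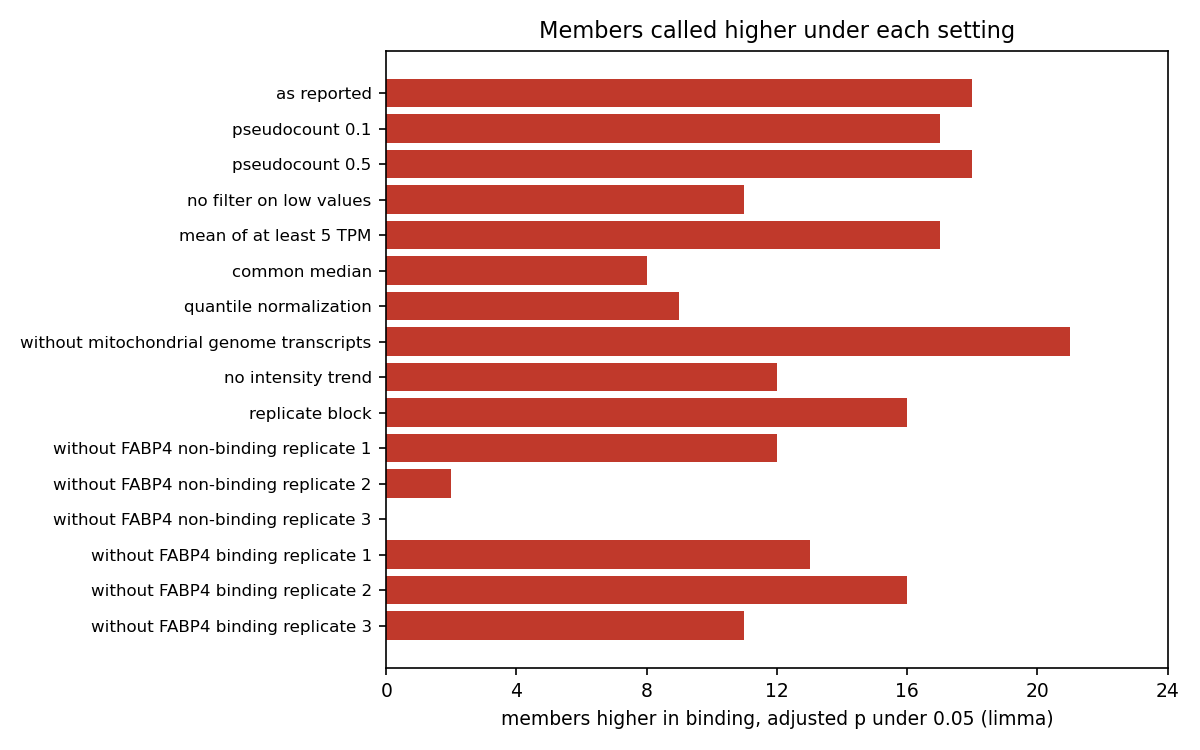
Number of the members called higher in binding libraries (limma, adjusted p under 0.05) as reported and under each of 15 alternatives, 1 bar per setting. The bars run from 0 without non-binding replicate 3 to 21 when mitochondrial genome transcripts were removed before rescaling. In those fits 0.372% and 28.4% of all tested genes were higher.

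Some members were abundant and others barely listed. In the non-binding cells the most abundant was ETFA, with a mean of 138 ± 4.51 TPM (SD, n = 3, as for all means below), followed by ECHS1 at 132 ± 20.2 and ACADVL at 124 ± 7.06, and ECHS1 overlapped both others while every ETFA value lay above every ACADVL value. In the binding cells ECHS1 led at 238 ± 56.7 TPM, with ACADVL at 214 ± 27.8, ECH1 at 152 ± 11.1 and ETFA at 149 ± 19.7. The libraries of the neighbours ECHS1 and ACADVL overlapped there, as did those of ECH1 and ETFA. At the other end, CPT1B, ACADL and ACAD11 were under the filter. CPT1B, the muscle form of the outer transferase, was listed at 0, 0.211 and 0 TPM in non-binding and 0, 1.16 and 0.841 TPM in binding libraries. ACADL, the long-chain dehydrogenase, ranged from 0.262 to 1.13 TPM and ACAD11 from 0.422 to 2.27 TPM over all 6 libraries. Summed over the 35 members, the level was 890 to 1010 TPM in the non-binding and 1360 to 1760 TPM in the binding libraries, a ratio of means of 1.58.

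The promoters of member pairs whose listed log2 changes differed are shown first, since their levels are compared below. The ratios of these pairs did not pass (exact permutation, adjusted p = 0.28). Any part of the promoters in them was not tested. HADHA and HADHB encode the alpha and beta subunits of the mitochondrial trifunctional protein and lie head to head on chromosome 2, HADHA at 26190635 to 26244726 on the minus strand and HADHB at 26243170 to 26290468 on the plus strand (hg38, GENCODE 29). Their RefSeq starts are 306 bases apart, so the 250 bases before HADHB also hold 194 of the 250 bases before HADHA. ETFA (chromosome 15, 76215355 to 76311472, minus strand) and ETFB (chromosome 19, 51345169 to 51366418, minus strand) encode the subunits of the electron transfer flavoprotein. Each line below gives the 250 bases before a RefSeq start (GRCh38.p14), 5′ to 3′ on the strand of the gene named. Capitals mark the GC box (GGGCGG, either strand) in HADHB and the CCAAT box (CCAAT, either strand) in ETFA and in ETFB, for which the more upstream of its 2 RefSeq starts is used. Some GENCODE transcripts start inside these windows.
HADHB, shared with HADHA, chr2:26244689-26244938, plus strand: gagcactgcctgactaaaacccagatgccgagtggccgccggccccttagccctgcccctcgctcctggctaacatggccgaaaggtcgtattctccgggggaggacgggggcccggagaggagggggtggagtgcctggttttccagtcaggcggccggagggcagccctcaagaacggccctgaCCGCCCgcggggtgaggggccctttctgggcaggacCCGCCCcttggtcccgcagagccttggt
ETFA, chr15:76311470-76311719, minus strand: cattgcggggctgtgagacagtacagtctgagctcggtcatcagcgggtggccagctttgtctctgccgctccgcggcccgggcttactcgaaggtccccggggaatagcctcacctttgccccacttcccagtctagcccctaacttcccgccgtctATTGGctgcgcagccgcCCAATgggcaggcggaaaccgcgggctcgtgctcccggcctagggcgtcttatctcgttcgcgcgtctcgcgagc
ETFB, chr19:51366389-51366638, minus strand: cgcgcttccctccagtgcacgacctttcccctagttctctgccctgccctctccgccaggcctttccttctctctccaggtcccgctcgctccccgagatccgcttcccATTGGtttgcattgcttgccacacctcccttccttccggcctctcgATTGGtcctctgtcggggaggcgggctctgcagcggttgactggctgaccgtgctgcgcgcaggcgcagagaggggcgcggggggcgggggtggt

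RefSeq promoter windows of 300 bases, from 250 before to 50 after a start, were found for 25 of the 35 members, 33 windows in all. The GC box was in 81.8% of the member windows, against 66.3% of the 14294 windows of tested genes and 45.0% of all 35116 windows. CCAAT was in 27.3% of the member windows, against 34.5% of windows of tested genes. The member windows had a median GC content of 66.3%, against 65.0% for tested genes. The PPAR/RXR direct repeat, 2 copies of AGGTCA with any 1 base between, was in none of the member windows and in 0.0228% of all windows. The ERR element (TCAAGGTCA), which contains AGGTCA, was in none and in 0.353%, with both strands searched. Motifs this rare would be missing from most sets of 33 windows, so their absence here is uninformative. These are matches of letters only.

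The carnitine shuttle hands long acyl chains across the mitochondrial membranes. The group taken here also holds CPT1C of the endoplasmic reticulum, and CRAT and CROT, which act on shorter chains. Of its 5 tested genes, 3 were higher (60%, against 19.6% of all tested genes) and none lower. The median log2 change was 0.78. Of the mitochondrial long-chain transferases, CPT1A passed and CPT2 did not. CPT1A, the widely expressed outer transferase that controls entry, was listed at 8.16, 7.37 and 9.95 TPM in non-binding replicates 1 to 3 and at 21.9, 12.3 and 15.4 TPM in binding replicates 1 to 3. Its groups did not overlap, and its log2 change of 0.86 (SE 0.24) had a limma adjusted p of 0.0362. CPT2, the inner transferase that returns the chain to coenzyme A, was listed at 2.75, 2.07 and 2.28 TPM in non-binding and 6.84, 3.48 and 4.40 TPM in binding libraries. All binding values lay above, with binding replicate 1 far above the others, and the log2 change of 0.78 (SE 0.28) missed the threshold (limma adjusted p = 0.0691). CRAT, which moves acetyl groups to carnitine in mitochondria and peroxisomes, was listed at 16.6, 15.0 and 14.2 TPM in non-binding and 23.0, 23.0 and 23.3 TPM in binding libraries, a log2 change of 0.57 (SE 0.15, limma adjusted p = 0.0314). The binding values of CRAT were nearly the same in all 3 libraries.

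CPT1C, a form of the endoplasmic reticulum known mainly from neurons, was listed at 3.00, 0.737 and 1.05 TPM in non-binding and 4.23, 4.78 and 4.22 TPM in binding libraries, and its log2 change was 1.16 (SE 0.35, limma adjusted p = 0.0436). Non-binding replicate 1 lay well above the other non-binding libraries. CROT, the peroxisomal octanoyl transferase, was listed at 1.28, 1.56 and 1.24 TPM in non-binding and 2.59, 1.44 and 2.89 TPM in binding libraries, so that its groups overlapped and it did not pass (log2 change 0.46, SE 0.30, limma adjusted p = 0.261). The calls of CPT1A, CPT1C and CRAT were each lost under both rescalings, and each held in only 1 of the 6 fits that leave out a library.

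Acyl-CoA dehydrogenases take the first step of each round and are named for the chain length they prefer. Of the 5 tested, 3 were higher (60%, against 19.6% of all tested genes) and none lower. The 3 were the enzymes for very long, medium and short chains. ACADVL was listed at 128, 115 and 127 TPM in non-binding and 246, 202 and 195 TPM in binding libraries, which did not overlap, with a log2 change of 0.78 (SE 0.14, limma adjusted p = 0.0141). ACADM, the medium-chain enzyme, was listed at 27.1, 18.4 and 23.8 TPM in non-binding and 50.7, 37.4 and 35.7 TPM in binding libraries, with a log2 change of 0.81 (SE 0.20, limma adjusted p = 0.028). ACADS, the short-chain enzyme, was listed at 7.85, 9.79 and 8.33 TPM in non-binding and 18.4, 16.2 and 15.0 TPM in binding libraries, with a log2 change of 0.86 (SE 0.18, limma adjusted p = 0.0192). The 3 log2 changes lay within 0.78 to 0.86. The ACADVL call held under both rescalings, and those of ACADM and ACADS held under neither. ACAD9, which also helps assemble respiratory complex I, averaged 11.8 ± 1.92 against 17.0 ± 4.53 TPM, and ACAD10 averaged 1.94 ± 0.460 against 2.62 ± 0.344 TPM, non-binding first, and neither passed (limma adjusted p = 0.135 and 0.392). ACADVL shares 85 exonic bases with DLG4 on the opposite strand, and whether the authors' quantification used strand is not given in the sources used here.

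The later steps of the mitochondrial round are carried out by the trifunctional protein for long chains and by separate enzymes for shorter ones. Of the 5 genes, HADHA, ECHS1 and ACAA2 were higher (60%, against 19.6% of all tested genes), and HADHB and HADH did not pass. The median log2 change was 0.66, or 0.3 over the all-gene median. HADHA, whose alpha subunit holds the hydratase and dehydrogenase, was listed at 80.1, 73.7 and 75.7 TPM in non-binding and 144, 111 and 111 TPM in binding libraries (log2 change 0.66, SE 0.15, limma adjusted p = 0.0217). HADHB, whose beta subunit holds the thiolase, was listed at 50.8, 51.5 and 54.9 TPM in non-binding and 65.7, 57.6 and 55.2 TPM in binding libraries (log2 change 0.18, SE 0.13, limma adjusted p = 0.325). The HADHB groups did not overlap, yet non-binding replicate 3 and binding replicate 3 were nearly equal, and its change was -0.14 under the common median and -0.01 under quantile normalization. The log2 ratio of HADHA to HADHB was 0.66, 0.52 and 0.47 in non-binding and 1.13, 0.95 and 1.01 in binding libraries. A single factor per library leaves such a ratio as it is, and it was 0.48 higher in the binding cells without overlap (two-sided exact permutation p = 0.1, which is the lowest possible with 3 against 3 libraries, adjusted p = 0.28 over 14 ratios). Quantile normalization, which does alter ratios, gave 0.57, again without overlap.

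HADHA has 2 processed pseudogenes with over 90% identity, to which reads can be assigned in its place. HADHAP1 averaged 7.23 ± 1.65 against 4.04 ± 0.132 TPM and HADHAP2 4.06 ± 1.18 against 1.79 ± 0.249 TPM, non-binding first, and their groups did not overlap. HADHA and both copies summed to 85.8 to 90.2 TPM in non-binding and 117 to 150 TPM in binding libraries, a ratio of means of 1.46, against 1.60 for HADHA alone and 1.14 for HADHB. HADHB also has a processed pseudogene, AC112656.1 (91.4% identity), with a mean of 0.792 TPM in the non-binding and 0.799 TPM in the binding cells.

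ECHS1, the short-chain hydratase, was listed at 154, 114 and 129 TPM in non-binding and 303, 208 and 202 TPM in binding libraries (log2 change 0.82, SE 0.19, limma adjusted p = 0.0239). ACAA2, the mitochondrial thiolase, was listed at 14.5, 8.69 and 12.4 TPM in non-binding and 26.4, 21.0 and 24.3 TPM in binding libraries (log2 change 0.98, SE 0.21, limma adjusted p = 0.021). Neither gene overlapped between groups, and binding replicate 1 stood furthest up for ECHS1. Under the common median ACAA2 alone of HADHA, ECHS1 and ACAA2 still passed, and under quantile normalization HADHA and ECHS1 did. HADH, the dehydrogenase for medium and short chains, averaged 9.73 ± 2.10 against 11.2 ± 1.45 TPM with overlapping groups (limma adjusted p = 0.492), and its log2 change of 0.19 became -0.13 under both rescalings. The log2 ratio of HADH to HADHA was 0.45 lower in the binding cells without overlap (-2.73, -3.22 and -3.03 against -3.49, -3.45 and -3.40, exact permutation p = 0.1, adjusted p = 0.28), and 0.70 lower under quantile normalization.

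Unsaturated chains need extra isomerases and reductases. These auxiliary enzymes had the highest median log2 change of the 7 roles, 0.98, or 0.63 above that of all genes. Of the 5 genes, 4 were higher (80%, against 19.6% of all tested genes). ECI1, the mitochondrial enoyl-CoA isomerase, was listed at 26.7, 27.0 and 27.3 TPM in non-binding and 67.5, 59.0 and 51.0 TPM in binding libraries, with a log2 change of 1.10 (SE 0.15, limma adjusted p = 0.0102). ECI2, its counterpart in peroxisomes and mitochondria, was listed at 11.5, 10.4 and 10.4 TPM in non-binding and 26.9, 21.6 and 19.0 TPM in binding libraries, with a log2 change of 0.98 (SE 0.18, limma adjusted p = 0.0156). The ratio of ECI1 to ECI2 changed by 0.07 on the log2 scale with overlapping groups (exact permutation p = 0.4, adjusted p = 0.56), and by 0.17 without overlap under quantile normalization. ECH1, a dienoyl-CoA isomerase of both organelles, was listed at 86.2, 84.4 and 73.4 TPM in non-binding and 165, 145 and 146 TPM in binding libraries, with a log2 change of 0.89 (SE 0.13, limma adjusted p = 0.0117).

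DECR1, the mitochondrial dienoyl-CoA reductase, was listed at 20.5, 14.3 and 17.6 TPM in non-binding and 40.3, 32.3 and 35.3 TPM in binding libraries, with a log2 change of 1.01 (SE 0.18, limma adjusted p = 0.0149). DECR2, the peroxisomal reductase, was listed at 2.37, 2.14 and 1.75 TPM in non-binding and 5.64, 3.24 and 3.84 TPM in binding libraries, and its log2 change of 0.74 (SE 0.27) missed the threshold (limma adjusted p = 0.0695). In each of these 5 genes every binding library lay above every non-binding library, as in 38.6% of all tested genes. The calls of ECI1, ECI2, ECH1 and DECR1 held under both rescalings. ECI1 and ECH1 held in 5 of the 6 fits that leave out a library, all but the one without non-binding replicate 3, where their adjusted p was 0.0517 and 0.0542. DECR2 shares 572 exonic bases with NME4 on the same strand, whose mean was 15.8 TPM in the non-binding and 31.2 TPM in the binding cells, so the level of DECR2 is uncertain.

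Electrons from the dehydrogenases pass to the electron transfer flavoprotein, made of the ETFA and ETFB subunits, and then through ETFDH to ubiquinone. Of these 3 genes only ETFB passed (33.3%, against 19.6% of all tested genes higher). ETFB was listed at 21.3, 19.5 and 19.3 TPM in non-binding and 41.3, 36.1 and 35.1 TPM in binding libraries (log2 change 0.87, SE 0.15, limma adjusted p = 0.0136). ETFA was listed at 140, 133 and 142 TPM in non-binding and 171, 144 and 133 TPM in binding libraries, with overlapping groups (log2 change 0.10, SE 0.13, limma adjusted p = 0.565), and its change was -0.21 under the common median and 0.08 under quantile normalization. ETFDH was listed at 9.25, 12.7 and 8.06 TPM in non-binding and 9.72, 9.68 and 7.81 TPM in binding libraries (log2 change -0.11, SE 0.22, limma adjusted p = 0.708), and 0.06 without non-binding replicate 2. ETFA was thus the more abundant subunit in every library, and the gap to ETFB was smaller in the binding cells. The log2 ratio of ETFB to ETFA was -2.71, -2.77 and -2.87 in non-binding and -2.05, -2.00 and -1.92 in binding libraries, a change of 0.80 without overlap (exact permutation p = 0.1, adjusted p = 0.28), and of 0.51 under quantile normalization, also without overlap. The ratio of ETFB to ETFDH changed by 1.02, also without overlap and with the same p. ETFDH shares 490 exonic bases with PPID on the opposite strand, whose mean was 101 TPM in the non-binding and 80.2 TPM in the binding cells, so the level of ETFDH is uncertain. ETFB shares 337 exonic bases with AC008750.8 on the same strand, whose mean was 0 TPM in the non-binding and 2.06 TPM in the binding cells.

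**Figure D3:**
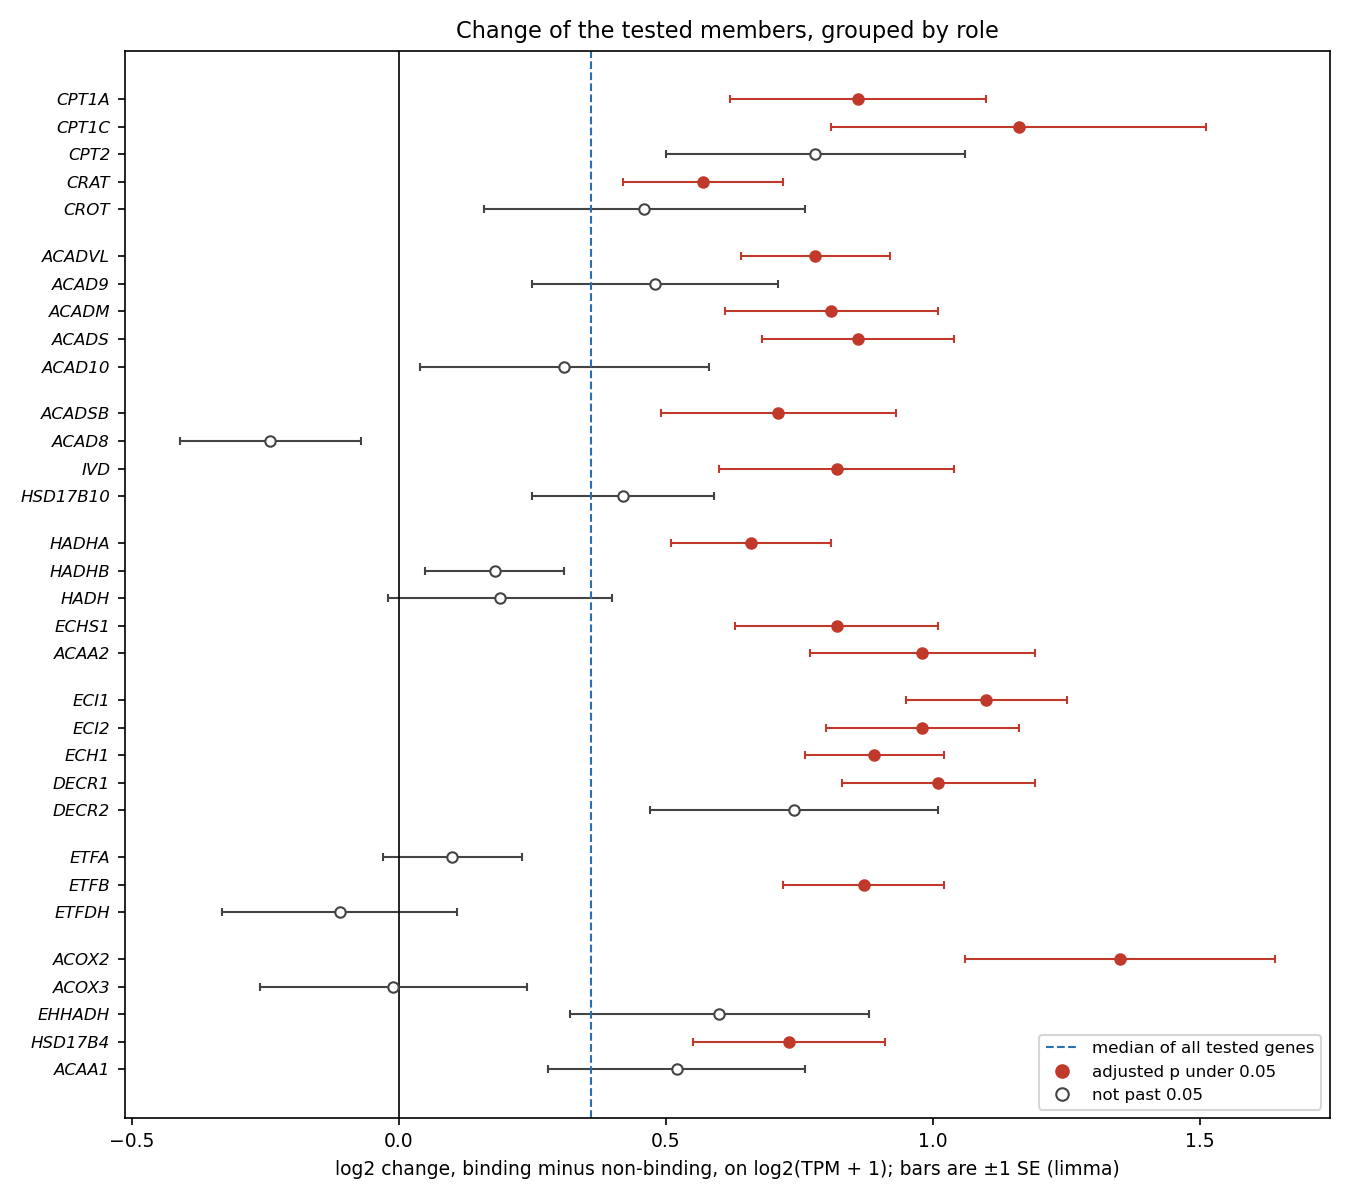
Log2 change of the 32 tested members between binding and non-binding libraries with bars of ±1 SE from limma, grouped by role, filled where the adjusted p is under 0.05. The dashed line marks the median of all tested genes at 0.36; ACOX2 at 1.35 lies furthest right and ACAD8 at -0.24 furthest left.

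The 4 genes that serve the breakdown of branched-chain amino acids were split, with 2 higher (50%, against 19.6% of all tested genes). IVD, the isovaleryl-CoA dehydrogenase of leucine breakdown, was listed at 15.2, 10.8 and 12.0 TPM in non-binding and 29.5, 18.7 and 21.7 TPM in binding libraries and was higher (log2 change 0.82, SE 0.22, limma adjusted p = 0.0322). ACADSB, which acts in isoleucine breakdown, was listed at 5.37, 5.66 and 4.80 TPM in non-binding and 10.8, 7.14 and 10.2 TPM in binding libraries and was higher (log2 change 0.71, SE 0.22, limma adjusted p = 0.0454). ACAD8, the isobutyryl-CoA dehydrogenase of valine breakdown, went the other way in its values. It was listed at 15.7, 16.4 and 15.5 TPM in non-binding and 15.4, 12.2 and 12.6 TPM in binding libraries, with a log2 change of -0.24 (SE 0.17, limma adjusted p = 0.295). ACAD8 was the 1 member below without overlap, though the margin between non-binding replicate 3 and binding replicate 1 was small. It passed as lower under the common median (-0.55, limma adjusted p = 0.0311) and under quantile normalization (-0.56, limma adjusted p = 0.035). The log2 ratio of IVD to ACAD8 was -0.05, -0.59 and -0.37 in non-binding and 0.94, 0.61 and 0.78 in binding libraries, a change of 1.12 without overlap (exact permutation p = 0.1, adjusted p = 0.28). HSD17B10, a dehydrogenase of isoleucine breakdown that is also a subunit of mitochondrial ribonuclease P, averaged 92.9 ± 8.61 against 126 ± 25.3 TPM and did not pass (limma adjusted p = 0.0875). The calls of IVD and ACADSB were both lost under both rescalings.

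The peroxisomal round showed 2 higher genes of 5 (40%), against 19.6% of all tested genes. ACOX2, the oxidase of branched chains and bile acid intermediates, was listed at 9.73, 4.03 and 6.18 TPM in non-binding and 20.4, 15.0 and 17.7 TPM in binding libraries, and its log2 change of 1.35 (SE 0.29, limma adjusted p = 0.0202) was the largest of the tested members on this scale. With a pseudocount of 0.1 the largest was CPT1C (1.64, against 1.48 for ACOX2). HSD17B4, the bifunctional enzyme for branched and very long chains, was listed at 15.4, 15.1 and 14.2 TPM in non-binding and 31.7, 22.4 and 22.7 TPM in binding libraries (log2 change 0.73, SE 0.18, limma adjusted p = 0.028). Both genes were above without overlap, and the ACOX2 call held under both rescalings while that of HSD17B4 did not. ACOX3, a second branched-chain oxidase, was listed at 4.99, 3.37 and 3.21 TPM in non-binding and 3.35, 3.56 and 4.49 TPM in binding libraries, with a log2 change of -0.01 (SE 0.25, limma adjusted p = 0.988) whose sign turned when non-binding replicate 1, binding replicate 1 or binding replicate 2 was left out (0.15, 0.06 and 0.03). EHHADH, the bifunctional enzyme of straight chains, was listed at 2.38, 2.21 and 4.13 TPM in non-binding and 5.49, 5.45 and 3.67 TPM in binding libraries (log2 change 0.60, SE 0.28, limma adjusted p = 0.131). The groups of both overlapped. ACAA1, the peroxisomal thiolase, was listed at 4.84, 2.92 and 5.09 TPM in non-binding and 6.22, 7.04 and 6.15 TPM in binding libraries, above without overlap but short of the threshold (log2 change 0.52, SE 0.24, limma adjusted p = 0.129).

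By compartment, 12 of 21 tested mitochondrial members were higher (57.1%), 3 of 3 that work in both organelles and 2 of 7 peroxisomal members (28.6%). Of all tested genes 19.6% were higher, so the peroxisomal share was not far from that of all genes. The median log2 change was 0.78 for the mitochondrial and 0.60 for the peroxisomal members, both above the all-gene median of 0.36. The difference of those medians, 0.17, ranged from 0.04 to 0.21 over the alternatives and was not tested, so the classes are not shown to differ. Peroxisomal members were also the less abundant, summing to 31.3 to 41.0 TPM in non-binding and 58.1 to 75.5 TPM in binding libraries, a ratio of means of 1.80, while the mitochondrial sums of 748 to 851 and 1100 to 1460 TPM gave 1.54. On the log2(TPM + 1) scale the change of such low genes is understated. Between matched enzymes of the 2 compartments, the ratio overlapped between groups for HADHA against HSD17B4 (log2 ratio change -0.10, exact permutation p = 0.3, adjusted p = 0.525, but 0.14 without overlap under quantile normalization) and DECR1 against DECR2 (0.05, exact permutation p = 0.8, adjusted p = 0.862). The ratio of the thiolases changed by 0.40 toward the mitochondrial ACAA2 with overlapping groups (exact permutation p = 0.2, adjusted p = 0.4). These tests of 3 against 3 libraries cannot show that ratios did not change.

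**Figure D4:**
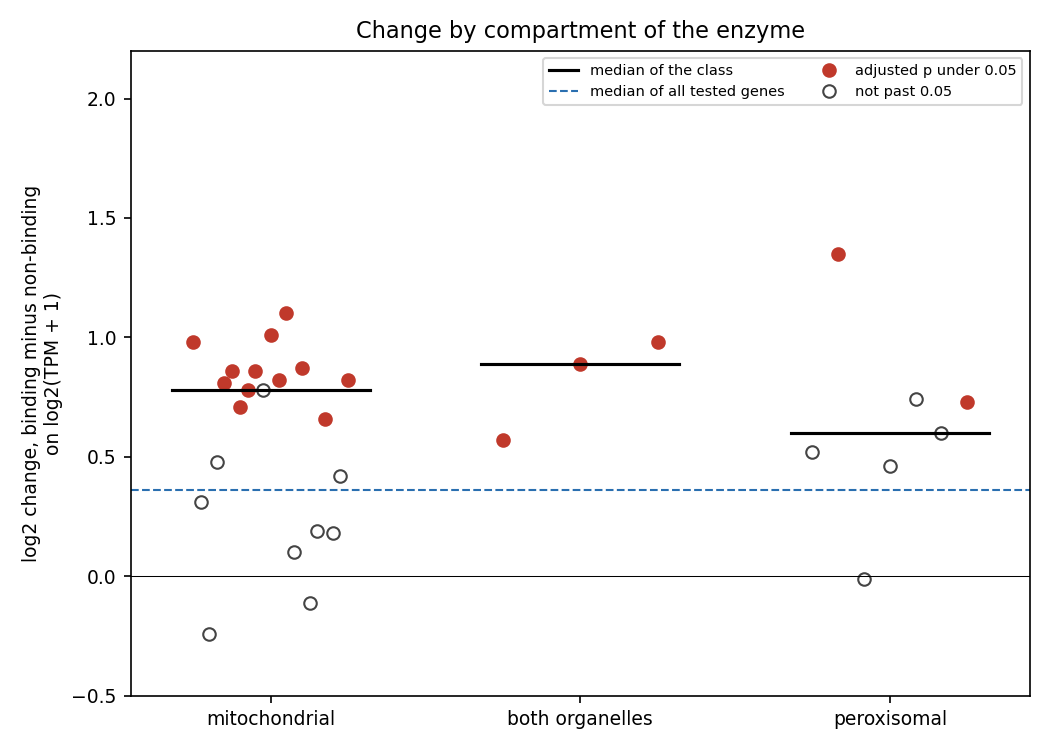
Log2 change of the tested members by the compartment in which the enzyme works, 1 point per gene, filled where the limma adjusted p is under 0.05, with the class median as a bar and the all-gene median of 0.36 as a dashed line. CPT1C, of the endoplasmic reticulum, is not drawn; the mitochondrial points run from -0.24 to 1.10 and the peroxisomal points from -0.01 to 1.35.

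By chain length among mitochondrial members, 3 of 6 tested long-chain genes (50%) and 4 of 5 medium- or short-chain genes (80%) were higher. Of all tested genes 19.6% were higher. The median log2 changes of the 2 classes were 0.72 and 0.82. The ratios of ACADVL to ACADM and to ACADS changed by -0.05 and -0.14 on the log2 scale with overlapping groups (exact permutation p = 0.9 and 0.4, adjusted p = 0.9 and 0.56), and that of ACADM to ACADS by -0.10 (exact permutation p = 0.8, adjusted p = 0.862). Under quantile normalization the ratios of ACADVL to ACADM and to ACADS turned to 0.25, without overlap, and 0.21, with overlap, so these data settle no direction between chain lengths. The outer and inner transferases CPT1A and CPT2 had a log2 ratio of 1.84 ± 0.28 in non-binding and 1.77 ± 0.08 in binding libraries (exact permutation p = 0.7, adjusted p = 0.862). Of the 14 ratios, 5 overlapped between groups neither as deposited nor under quantile normalization, and these were the ratios of HADHA to HADHB, HADH to HADHA, ETFB to ETFA, ETFB to ETFDH and IVD to ACAD8. The pairs were chosen with the values known, and HADHA and ETFB recur among these 5. No share over other gene pairs was computed, so the count is a description only.

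**Figure D5:**
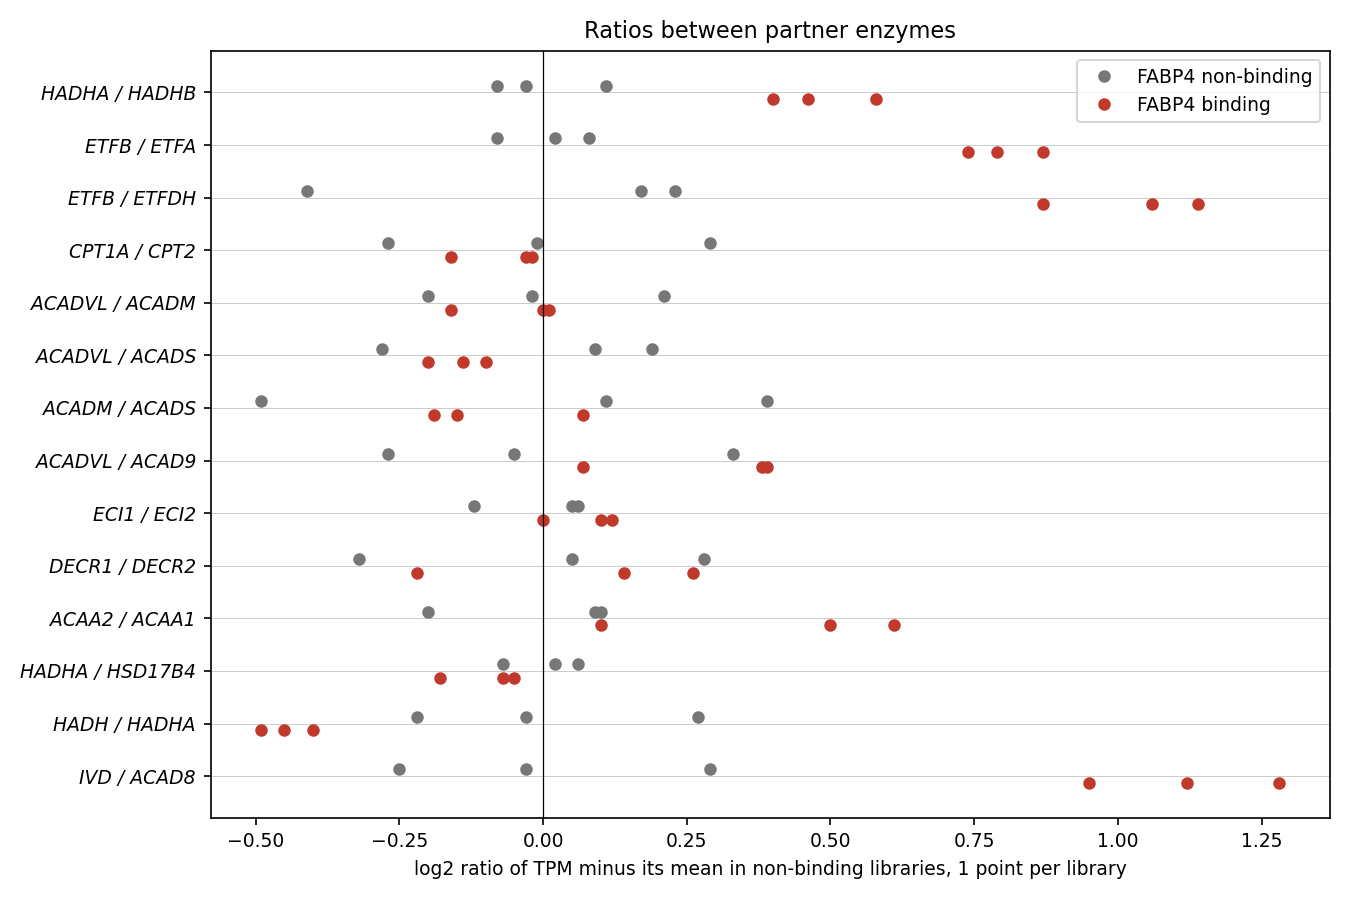
Log2 ratio of TPM between partner enzymes in each library, drawn as the difference from the mean of the non-binding libraries, with non-binding in grey and binding in red. The ratios IVD to ACAD8, ETFB to ETFDH and ETFB to ETFA stand 1.12, 1.02 and 0.80 higher in the binding libraries, while those among ACADVL, ACADM and ACADS overlap.

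A list of 54 other genes around the pathway (activation, transport, thioesterases, ketone and propionate steps, cofactor supply and regulators) had 53 in the table and 44 tested, of which 8 were higher and none lower by limma. That share of 18.2% was near the 19.6% of all tested genes, and its median log2 change of 0.46 exceeded the all-gene median by 0.10. At an unadjusted limma p under 0.05, 18 of the 44 were higher and 0 lower, where 33% of all tested genes were higher. Among the smallest p-values were those of SLC52A2, a transporter of the flavin precursor riboflavin, at 43.4 ± 8.50 against 91.5 ± 22.3 TPM (limma adjusted p = 0.0193), and of ACOT8, a peroxisomal thioesterase, at 7.83 ± 0.933 against 16.1 ± 4.76 TPM (limma adjusted p = 0.0302), non-binding first. SLC25A20, the carrier that exchanges acylcarnitines across the inner membrane, was listed at 14.1, 7.85 and 7.13 TPM in non-binding and 20.0, 11.4 and 13.6 TPM in binding libraries and did not pass (limma adjusted p = 0.149). The oxidation regulator PPARA was higher, at 2.35 ± 0.405 against 4.60 ± 0.0835 TPM (limma adjusted p = 0.045), and PPARD was not past the threshold at 22.9 ± 3.37 against 26.9 ± 0.566 TPM (limma adjusted p = 0.285). PPARGC1A, a coactivator of oxidation genes, and ACACB, which makes the malonyl-CoA that inhibits CPT1, averaged 0.472 ± 0.155 against 0.685 ± 0.125 TPM and 0.493 ± 0.196 against 1.09 ± 0.325 TPM and lay below the filter.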

How the data were processed

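Total RNA of sorted MDA-MB-231 cells was sequenced in 6 libraries, 3 per group, per the labels' protocols. The values are TPM that the authors deposited, known from the column sums of 1000000. The submitters' processing notes name hg38. For the aligner, quantifier and annotation the answer is not given in the sources used here. Depth cannot be read from TPM, and neither a count model nor an interval was used. Because TPM are shares, transcripts that gain share lower the rest.

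Columns were matched by the names in the labels. Genes with at least 1 TPM in 3 libraries were tested on log2(TPM + 1) with limma (version 3.58.1, R version 4.3.3; trend on mean level, no covariate). P-values were adjusted by Benjamini-Hochberg over all tested genes. The fit was also run on simulated data in which genes varied independently, so shifts shared by many genes of a library were not covered. Fold changes are on that scale, which understates low genes. For ratios of 2 members, a two-sided exact permutation test was used. Gene positions, exon overlaps and transcripts were from GENCODE 29, with copies sought by blastn 2.17.0 (at least 90% identity over 900 bases, pseudogenes only), and promoters from RefSeq (GRCh38.p14). The members, roles, pathway list, marker lists, pairs and motifs were chosen with earlier results of these data known. Values in every library are given for members past the threshold and for 13 members listed by name, with DECR2, ETFA, ETFDH, ACAD8 and CPT1B added after their values were seen. The other pathway genes to name were the 3 with the smallest p and 5 fixed ones, and 1 of these is not reported here. Of the marker lists, leukocyte markers (3 tested) and fibroblast markers (5 tested) gave 0 limma calls, with 0 and 1 at an unadjusted p under 0.05, and no endothelial or erythroid marker passed the filter. The alternatives changed the pseudocount (0.1, 0.5), the filter (none beyond a value above 0, or a mean of at least 5 TPM), the scaling, the trend and the block, and left out each library in turn.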

Additional observations from a re-analysis of the deposited data

How the results depend on the processing

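The 18 higher members became 11 without the filter, 8 under the common median and 9 under quantile normalization. Of all tested genes 5.12%, 6.18% and 7.69% were higher in those fits, against 19.6% as reported. With 1 library left out, 0 to 16 members were higher, and 0.372 to 12.7% of all tested genes. The count was 0 lacking non-binding replicate 3 (0.372% of all tested genes) and 2 lacking non-binding replicate 2 (1.8%). Lacking binding replicate 3 it was 11 (9.98%). The lower members went from 0 to 1 under either scaling. Calls among all genes went from 4156 to 1873 without the filter, 2443 with quantile normalization, 2559 without the trend and 64 to 2863 with 1 library left out. Of the calls, 33.7% were higher under the common median and 49.0% under quantile normalization, against 73.3% as reported, and 84.6% without mitochondrial genome transcripts. The mitochondrial and peroxisomal medians were 0.46 and 0.29 under the common median, and 0.52 and 0.35 under quantile normalization. Both scalings by construction remove part of the all-gene shift of 0.36; the cause of the other differences was not tested. Signs turned for ACAD10 (-0.01), HADHB (-0.14), HADH (-0.13) and ETFA (-0.21) under the common median, for HADHB (-0.01) and HADH (-0.13) under quantile normalization, for ACOX3 without mitochondrial genome transcripts (0.09) and without non-binding replicate 1 (0.15), binding replicate 1 (0.06) or binding replicate 2 (0.03), and for ETFDH without non-binding replicate 2 (0.06). With 1 library left out ACOX3 ranged from -0.11 to 0.15 and ETFDH from -0.24 to 0.06. None of these 6 members passed as reported. Under quantile normalization, an alternative added for the ratios after seeing the data, the log2 ratio changes of ACADVL to ACADM (0.25), ACADVL to ACADS (0.21) and HADHA to HSD17B4 (0.14) turned from negative to positive, and no adjusted p was under 0.05. Same-numbered libraries did not deviate together (correlations 0.03, -0.02 and 0.03). With 3 libraries per group this cannot settle whether same-numbered libraries shared a culture or sort, so pairing is unknown. With the replicate block 16 members were higher, where 20.4% of all tested genes were, and 4306 genes passed.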
